A study of Mus musculus with 6 samples.

Results

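The RNA of RGS proteins of the R4 and R7 subfamilies was analysed in the granule cell layer of the dentate gyrus (DG) of Bcl11b/Ctip2 mutant and control mice. The set held 10 genes, 6 of the R4 subfamily (Rgs2, Rgs3, Rgs4, Rgs5, Rgs8, Rgs16) and 4 of the R7 subfamily (Rgs6, Rgs7, Rgs9, Rgs11), of 19938 genes tested. Each was matched by symbol to the annotation of the array, and where a gene had several probe sets the brightest on average was used, which gave a value for 10 of the 10 genes. The set was chosen by its differences between mutant and control arrays, with those values known. The values of these 10 genes are therefore a description, and no p-value is given for any of them.

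RGS proteins (regulators of G protein signaling) bind active G protein alpha subunits through their RGS domain and speed up the hydrolysis of GTP, which ends the signal that a receptor has started. R4 proteins are small and consist of little more than this domain. R7 proteins carry a further domain that binds the G protein beta subunit Gnb5, without which they are unstable, and they act on the Gi/o class of alpha subunits. In neurons both subfamilies set the duration of responses to modulatory transmitters.

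RNA came from the granule cell layer, taken by laser capture microdissection 4 weeks after the end of doxycycline treatment in 3 control and 3 mutant samples, 1 array each. Mutants carried floxed Bcl11b alleles together with tetO-Cre and CaMKIIα-tTA, a transactivator expressed in forebrain neurons that switches on Cre when doxycycline is withdrawn. Both groups had received doxycycline throughout embryogenesis and until 2 months of age. The sources used here do not give the exact genotype of the controls, the sex of the mice or whether 1 array holds 1 animal. Errors and p-values therefore measure the spread between these samples, which may in part be technical.

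Array medians ranged from 6.29 to 6.36 in log2 units, and controls 1 and 3 stood apart in opposite directions on the second principal component (14.5% of the variance). Their scores were 16.34 and -11.79, with the other 4 arrays between -2.70 and 1.85, and their array weights of 0.37 and 0.54 were the lowest of the 6. Control 2 had the highest weight, 3.06, so results with array weights rest mostly on control 2 for the control group. Bcl11b itself was at 10.56, 10.40 and 10.30 in controls and at 9.03, 8.68 and 8.82 in mutants. Its log2 difference was -1.58 (standard error 0.099, adjusted p = 2.56e-05 from limma). Whether its probes fall inside the floxed exons was not examined. Prox1, a transcription factor that defines granule cells, was high in every array (mean of 11.63 over the 6 arrays, log2 difference of -0.051). It is only 1 of 14 granule cell markers listed, of which 3 were called higher in mutants and 7 lower. Over all genes 9.23% were called higher and 5.93% lower.

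Rgs4 and Rgs2 were lower in the granule cell layer of mutants, Rgs6 was higher, and the other 7 genes differed little between the groups. Of the 10 genes, 1 was called higher and 2 were called lower at an adjusted p under 0.05, where 15.2% of all genes were called, 9.23% higher and 5.93% lower. The 3 control and 3 mutant values did not overlap for 3 of the 10 genes and for 31.6% of all genes. Since this contrast chose the set, nothing is read from these shares. The median log2 difference was 0.08 over the 10 genes and -0.0027 over all genes. In tissue of many cells, fewer cells of a type and less RNA per cell cannot be told apart.

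**Figure D1:**
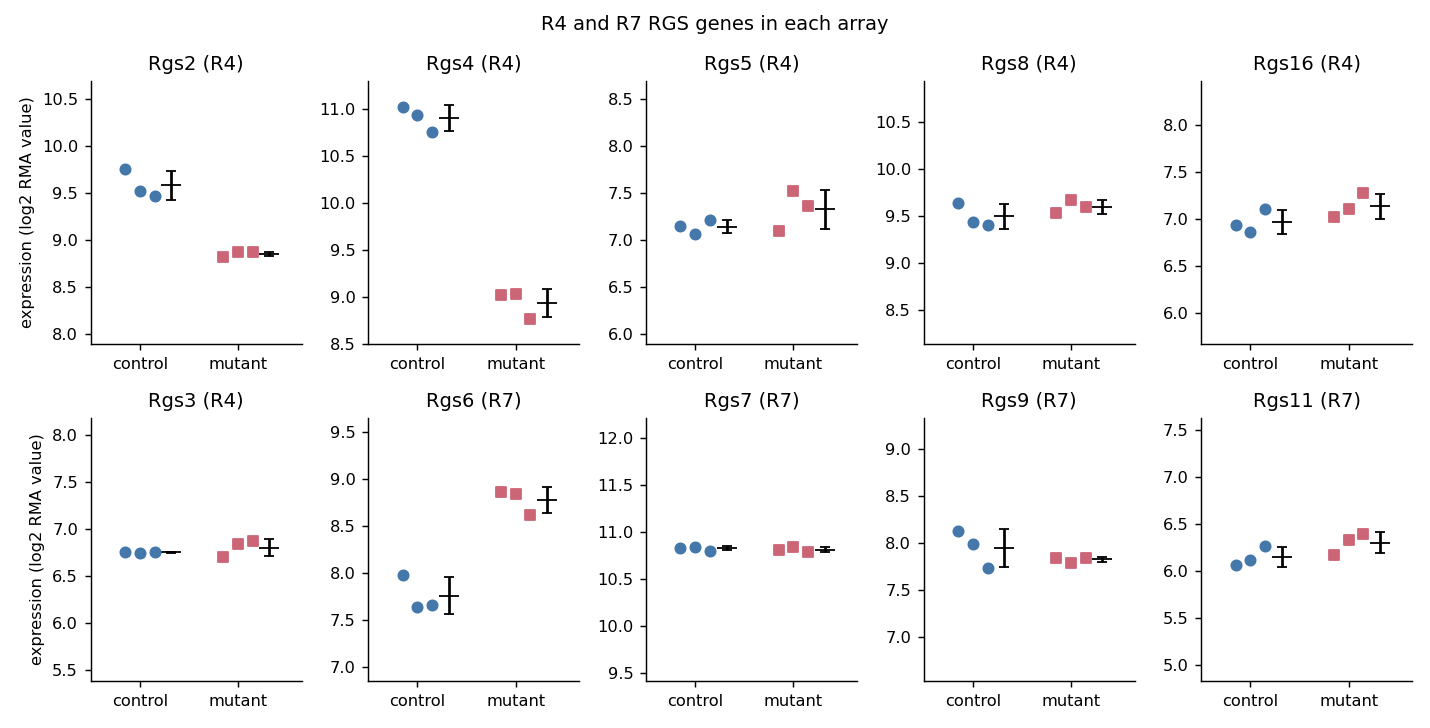
Log2 expression of each R4 and R7 gene in each array on the vertical axis, with control arrays as circles on the left and mutant arrays as squares on the right of each panel. Black lines with bars are the mean and SD (n = 3 per group), and every panel spans the same range of log2 units. The groups are separate for Rgs2 and Rgs4, which are lower in mutants, and for Rgs6, which is higher, while Rgs7 is level across the 6 arrays.

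Rgs4, an R4 protein abundant in forebrain neurons that acts on Gi/o and Gq alpha subunits, showed the largest difference of the set. Its log2 expression was 11.02, 10.93 and 10.75 in controls 1, 2 and 3 and 9.02, 9.03 and 8.77 in mutants 1, 2 and 3. Every mutant array thus lay more than 1 log2 unit under every control array. Controls averaged 10.90 ± 0.14 (SD, n = 3) and mutants 8.94 ± 0.15 (SD, n = 3), a log2 difference of -1.97 (standard error 0.092). On the linear scale mutant expression was 25.6% of the control level. The difference was -1.90 without control 1 and -2.04 without control 3, and between -2.04 and -1.88 when each array was left out in turn.

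Rgs2, an R4 protein known for its preference for Gq and for its rapid induction by neuronal activity, was lower by less. It stood at 9.76, 9.52 and 9.46 in controls and at 8.82, 8.87 and 8.87 in mutants. The mutant arrays lay close together, while control 1 was the highest of the controls. The means of 9.58 ± 0.16 (SD, n = 3) and 8.85 ± 0.025 (SD, n = 3) gave a log2 difference of -0.73 (standard error 0.078), and mutant expression was 60.3% of the control level. Without control 1 the difference was -0.64 and without control 3 it was -0.79, the smallest and the largest size when 1 array was left out.

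Rgs6 was the 1 gene of the set that was called higher in mutants. It is an R7 protein best known for ending muscarinic signals in the heart, and it is also found in brain. Its log2 expression was 7.98, 7.64 and 7.65 in controls and 8.86, 8.84 and 8.61 in mutants. The groups did not overlap, and control 1 again was the highest control. The means were 7.76 ± 0.19 (SD, n = 3) and 8.77 ± 0.14 (SD, n = 3), a log2 difference of 1.01 (standard error 0.10), which is a fold of 2.02. Here the difference was larger without control 1, at 1.12, and it was 0.96 without control 3 and at least 0.95 when any other single array was left out.

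The promoters of these 3 genes are shown because their RNA levels separated the groups, and that of Rgs5 because it is the gene next to Rgs4 and did not move with it. The sequences are from RefSeq (GRCm38.p6) and run from 250 bases before to 50 bases after the transcription start, 5′ to 3′ on the strand of the gene. Rgs4 lies on the minus strand (chr1:169747593-169747892), as does Rgs2 (chr1:144004100-144004399), while Rgs5 (chr1:169655251-169655550) and Rgs6 (chr12:82617249-82617548) lie on the plus strand. Capitals mark matches on either strand to 4 motifs. These were TGGGC, a putative Bcl11b/Ctip2 binding sequence named by the study, and TGACG, a part of the cAMP response element. The others were CCAAT, a common element of promoters, and the TATA box, searched as TATAAA. None of these marked matches overlap one another.
Rgs4: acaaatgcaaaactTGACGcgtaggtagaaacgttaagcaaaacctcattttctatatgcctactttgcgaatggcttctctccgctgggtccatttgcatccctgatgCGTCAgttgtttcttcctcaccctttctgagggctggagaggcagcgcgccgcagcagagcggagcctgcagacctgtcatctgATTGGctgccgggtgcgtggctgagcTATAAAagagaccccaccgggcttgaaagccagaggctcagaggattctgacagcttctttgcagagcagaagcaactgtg
Rgs2: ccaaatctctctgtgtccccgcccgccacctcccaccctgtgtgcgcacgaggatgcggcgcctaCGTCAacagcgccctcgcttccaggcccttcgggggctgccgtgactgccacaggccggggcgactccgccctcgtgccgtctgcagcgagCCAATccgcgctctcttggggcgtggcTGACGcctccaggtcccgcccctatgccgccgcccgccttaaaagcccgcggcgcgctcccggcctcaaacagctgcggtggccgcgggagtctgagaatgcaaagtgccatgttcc
Rgs6: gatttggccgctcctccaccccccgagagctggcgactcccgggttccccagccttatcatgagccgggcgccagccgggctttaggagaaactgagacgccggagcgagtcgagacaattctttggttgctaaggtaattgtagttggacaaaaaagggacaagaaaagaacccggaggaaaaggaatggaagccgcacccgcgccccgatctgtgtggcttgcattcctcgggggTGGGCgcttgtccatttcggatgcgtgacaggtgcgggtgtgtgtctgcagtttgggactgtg
Rgs5: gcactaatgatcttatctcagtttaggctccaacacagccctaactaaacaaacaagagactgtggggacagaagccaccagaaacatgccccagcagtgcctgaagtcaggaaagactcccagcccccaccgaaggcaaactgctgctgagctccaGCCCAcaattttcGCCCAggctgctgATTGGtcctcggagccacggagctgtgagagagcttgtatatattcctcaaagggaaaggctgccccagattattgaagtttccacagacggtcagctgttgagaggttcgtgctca

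The promoters of both genes of the set that were called lower, Rgs4 and Rgs2, held 2 matches each to TGACG, and that of Rgs6 held 0. The promoter of Rgs13, which was called lower as well, also held 0. Rgs8, which was not called, held 1 match in 1 of its 3 promoters. The promoters of Rgs3, Rgs5, Rgs7, Rgs9 and Rgs16, not called either, held 0. In Rgs4 the matches to TGACG began at positions -236 and -141 and in Rgs2 at -185 and -67, counted back from the start. At least 1 match to TGACG was present in 20.8% of the 32851 promoters of the table, and the share with 2 was not counted. TGGGC occurred once in Rgs6, at position -13, and 2 times in Rgs5, and was not among the letters of this window in Rgs4 or Rgs2. It also stood in at least 1 promoter of Rgs3, Rgs7, Rgs8 and Rgs16, which were not called, and was absent from those of Rgs9 and Rgs13. It was present in 56.9% of all promoters, CCAAT in 37.4% and the TATA box in 13.6%. A match to the TATA box stood at position -31 of Rgs4. The promoter of Rgs2 was made up of G and C to 70.0%, against 53.0% in Rgs4 and a median of 52.7% over the table. Such matches describe the letters of these windows only. Of the 10 genes, 9 had at least 1 promoter in the table.

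The remaining R4 genes were Rgs5, Rgs8, Rgs16 and Rgs3. For these 4 genes the log2 difference lay between 0.051 and 0.18, with groups that overlapped in each case. Rgs8, a neuronal R4 protein, was at 9.64, 9.43 and 9.40 in controls and at 9.52, 9.66 and 9.59 in mutants. This is a log2 difference of 0.10 with a 95% interval from -0.071 to 0.27. Control 1 lay among the mutants for this gene. The difference was 0.17 without control 1, 0.055 without control 3 and 0.064 without mutant 2. Rgs16, whose RNA is induced by many stimuli, was at 6.94, 6.86 and 7.11 in controls and at 7.02, 7.11 and 7.28 in mutants. Its log2 difference was 0.17 with a 95% interval from -0.028 to 0.36. It was called higher in 1 of 13 alternative settings, that with array weights, which lean on control 2, the lowest control for Rgs16. Rgs3, which occurs in long and short forms, had 2 probe sets of its own. The brighter one had a log2 difference of 0.051 with a 95% interval from -0.085 to 0.19, and the other one of 0.0063. When 1 array was left out, the difference lay between 0.095 and 0.24 for Rgs16 and between 0.018 and 0.10 for Rgs3. Rgs3 and Rgs16 had mean levels under 7.06, the median over all genes, and without detection calls it is not known whether they exceeded background.

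Rgs5 is known as a marker of pericytes and vascular smooth muscle, together called mural cells. It was at 7.15, 7.07 and 7.21 in controls and at 7.10, 7.52 and 7.36 in mutants. Mutant 1 lay within the range of the controls and mutants 2 and 3 above it. The log2 difference was 0.18 with a 95% interval from -0.044 to 0.41, and the value was 0.30 without mutant 1 and 0.087 without mutant 2. Of 15 other mural cell markers 1 was called higher and 0 lower, where 9.23% and 5.93% of all genes were. A positive difference was seen for 10 of the 15, with a median of 0.030. The called one was the growth factor receptor Pdgfrb, with a log2 difference of 0.40 (adjusted p = 0.00324 from limma). The summed linear level of the 15 markers was 1166 to 1245 in controls and 1205 to 1303 in mutants. Of these markers 13 had a mean level under the median over all genes. Their part in the value of Rgs5 was not tested.

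Among R7 genes Rgs7 was level to within the spread of the arrays. Rgs7, the R7 protein that is most widely expressed in brain, was at 10.83, 10.84 and 10.80 in controls and at 10.81, 10.84 and 10.78 in mutants. The 6 values spanned 0.059 on the log2 scale, the smallest span of the set. Its log2 difference was -0.014 with a 95% interval from -0.13 to 0.10. Rgs9, of which one form is typical of the striatum and another of photoreceptors, was at 8.13, 7.98 and 7.73 in controls and at 7.84, 7.79 and 7.84 in mutants. The controls spread more widely than the mutants and enclosed them, and the log2 difference was -0.13 with a 95% interval from -0.34 to 0.086. When 1 array was left out it lay between -0.23, without control 3, and -0.035, without control 1. Rgs11, known from retinal bipolar cells, was at 6.07, 6.12 and 6.26 in controls and at 6.18, 6.34 and 6.40 in mutants. Its log2 difference was 0.15 with a 95% interval from -0.022 to 0.33, and it lay between 0.11 and 0.22 when 1 array was left out. Its mean level was under the median over all genes. Rgs6 was the 1 gene of the 4 in this subfamily whose groups were separate, as they were for 31.6% of all genes.

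The difference of Rgs6 was set against the partners that R7 proteins need. Of 5 such partners 2 were called higher in mutants, where 9.23% of all genes were, and 3 did not pass the test. Gnb5, the beta subunit that every R7 protein binds, was at 10.82, 10.96 and 10.87 in controls and at 11.12, 11.16 and 11.17 in mutants. The groups did not overlap, and the log2 difference was 0.27 (standard error 0.057, adjusted p = 0.0133 from limma). Gpr158, an orphan receptor that recruits R7 proteins to the membrane, was at 10.69, 10.64 and 10.57 in controls and at 11.25, 11.03 and 11.02 in mutants. Its log2 difference was 0.47 (standard error 0.075, adjusted p = 0.00346 from limma), again with separate groups. The membrane anchor Rgs7bp had a log2 difference of -0.016, the retinal anchor Rgs9bp of 0.031 and Gpr179, the retinal relative of Gpr158, of 0.11. In the methods' t-test with Benjamini-Hochberg adjustment, Gnb5 and Gpr158 did not pass (adjusted p = 0.0567 and 0.0671). For Gnb5 the adjusted p was also 0.0546 without mutant 2 and 0.0588 without mutant 3 in limma.

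Of 9 other RGS genes that were measured, 2 were called lower and 0 higher, and the remaining 7 were not called. Over all genes 5.93% were called lower and 9.23% higher. No gene of the 9 was higher at an unadjusted p under 0.05 either. Rgs13, a further R4 gene best known from lymphocytes and mast cells, was at 8.24, 8.05 and 8.30 in controls and at 7.22, 6.97 and 7.37 in mutants. Every mutant array lay under every control array, with a log2 difference of -1.01 (standard error 0.11, adjusted p = 3.87e-04 from limma). This call was kept in 14 of 14 alternatives. Rgs14, of the R12 subfamily and typical of pyramidal cells of hippocampal area CA2, had a log2 difference of -0.30 (standard error 0.087, adjusted p = 0.0478 from limma). It did not pass with the methods' t-test (adjusted p = 0.211), nor without control 2 (0.116), control 3 (0.128), mutant 1 (0.0526), mutant 2 (0.139) or mutant 3 (0.0995). The R4 genes of blood and taste cells Rgs1, Rgs18 and Rgs21 had log2 differences of -0.061, 0.0050 and -0.11, at mean levels of 4.87, 4.50 and 4.33. These levels lie below those of most genes, and with array weights Rgs21 passed the test (adjusted p = 0.0415). The difference of Rgs17, Rgs19 and Rgs20, which form the RZ subfamily, was 0.024, 0.00010 and -0.021, and that of Rgs12 was 0.0061.

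**Figure D2:**
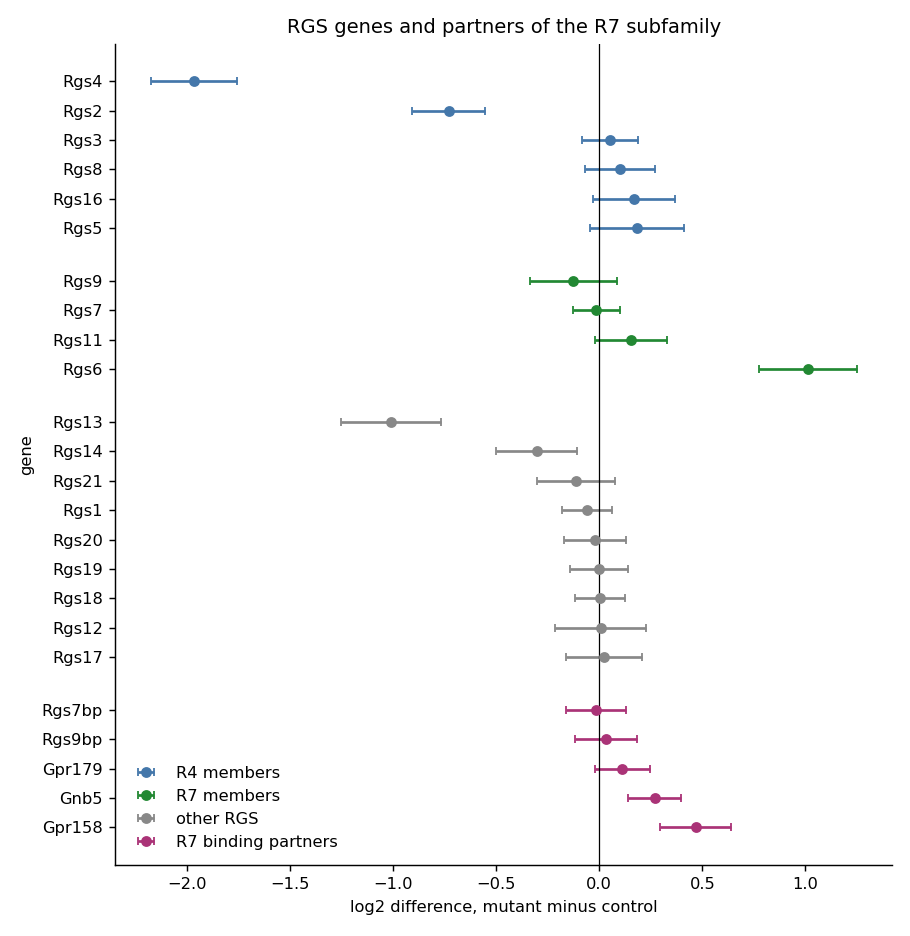
Log2 difference between mutant and control arrays (horizontal axis, n = 3 per group) of R4 and R7 genes, the other RGS genes and partners of the R7 subfamily, 1 gene per row. Points are limma estimates and bars 95% intervals, which for the 10 R4 and R7 genes of the set are a description. Rgs4, Rgs13 and Rgs2 lie farthest to the left and Rgs6 farthest to the right.

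Many RGS genes stand side by side on chromosome 1, so that their differences could be compared between neighbours. In the GRCm38.p6 annotation Rgs2 and Rgs13 are adjacent, with 0 protein-coding genes between them, and both were lower in mutants. Next to Rgs13 follow Rgs1, Rgs21 and Rgs18, again with 0 protein-coding genes between each pair, and these 3 genes did not pass the test. Rgs5 and Rgs4 are adjacent as well, with log2 differences of 0.18 and -1.97, and they lie on opposite strands and point towards each other. Rgs8 and Rgs16 are adjacent too, on the same strand, with log2 differences of 0.10 and 0.17. Rgs6, the gene that was called higher, is on chromosome 12.

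**Figure D3:**
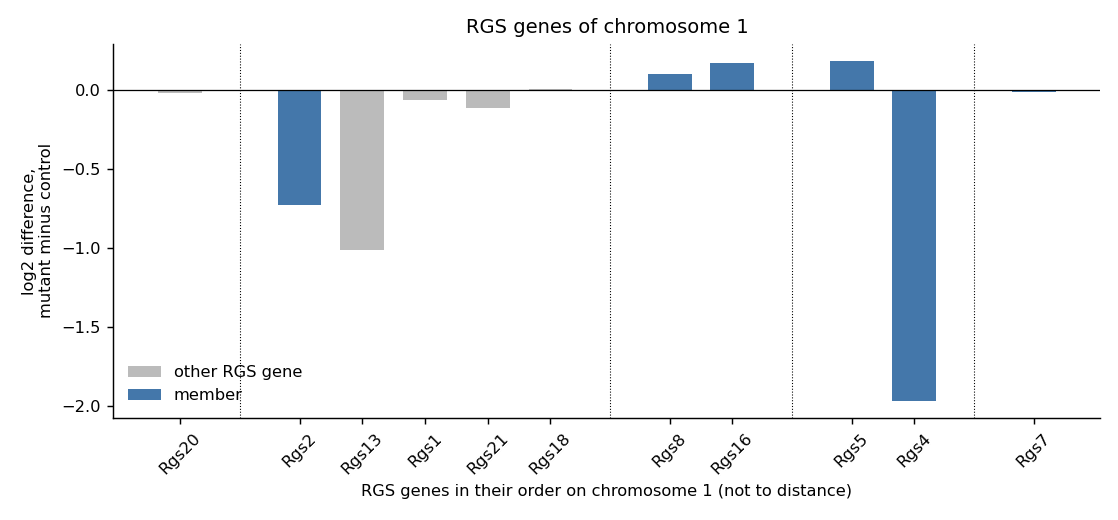
Log2 difference between mutant and control arrays (vertical axis, n = 3 per group) of the RGS genes of chromosome 1 in their order along the chromosome, not to distance. Dark bars are R4 and R7 genes of the set, light bars other RGS genes, and dotted lines stand where other protein-coding genes lie between them. Rgs2 and Rgs13 are low side by side, whereas Rgs4 is low beside Rgs5, which was not called.

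The genes that RGS proteins act on or work with were compared from lists of 99 measured genes, the RGS genes and partners above included. Of these, 14 were called higher and 17 lower, leaving 68 not called, which is 31.3% called where 15.2% of all genes were. Their median log2 difference was 0.0027. Over all genes 9.23% were called higher and 5.93% lower, a split that depended on the scaling. The lists were chosen with earlier results of these data known, so nothing is read from these counts, in all or by list. With the methods' t-test and adjustment 10 of the 99 were called, and the limma count was 20 without mutant 1 and 18 without mutant 2.

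Alpha subunits, the direct targets of RGS proteins, were called higher for 4 of 15 genes and lower for 0. The shares over all genes were 9.23% and 5.93%. Gnai2 stood at 10.19, 10.23 and 10.17 in controls and at 10.85, 10.94 and 10.85 in mutants. This was the largest difference of the list, 0.68 on the log2 scale (adjusted p = 8.46e-05 from limma, standard error 0.054). Gnao1, the most abundant alpha subunit of neurons, rose by 0.36 on the log2 scale (adjusted p = 0.0116 from limma) and Gnaq, a target of Rgs2 and Rgs4, by 0.31 (adjusted p = 0.0134). Gnai1 had a log2 difference of 0.22 (adjusted p = 0.0374 from limma). No alpha subunit was lower at an unadjusted p under 0.05. Of these 4, Gnai2 passed the methods' t-test after adjustment, where Gnao1, Gnaq and Gnai1 had an adjusted p of 0.105, 0.0912 and 0.112. In limma Gnao1 was lost without mutant 2 (adjusted p = 0.0540) and Gnaq without mutant 1 or mutant 2 (0.0557 and 0.0613). Gnai1 was lost without any 1 of the arrays (0.0527 to 0.130), after median centring (0.0895), after renewed quantile normalization (0.0604) and with the replicate number as a block (0.0561).

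Of 16 beta and gamma subunits 1 was higher and 2 were lower. The gamma subunit Gng3, a neuronal subunit, was at 9.25, 9.14 and 9.41 in controls and at 10.41, 10.38 and 10.65 in mutants, a log2 difference of 1.21 (standard error 0.093, adjusted p = 7.23e-05 from limma). Gnb4 had a log2 difference of -0.56 (adjusted p = 0.00164 from limma), at a level under the median over all genes, and Gng12 of -0.20 (adjusted p = 0.0414). In the methods' t-test Gnb4 and Gng12 had an adjusted p of 0.0547 and 0.0813. Gng12 was also lost in limma with the replicate block (adjusted p = 0.0637) and when any array but control 3 was left out (0.0640 to 0.141).

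Effectors that G proteins switch on or off changed in both directions, with 3 of 17 higher and 5 lower. The 6 called genes of smallest p are all adenylyl cyclases, which make cAMP. Also called lower, at a larger p, were the cyclase Adcy8 (log2 difference of -0.33, adjusted p = 0.0225 from limma) and the potassium channel Kcnj3 (-0.23, adjusted p = 0.0495). Neither was followed gene by gene through the alternatives. The log2 level of Adcy5 rose by 0.68 (standard error 0.076, adjusted p = 5.16e-04 from limma), that of Adcy3 by 0.48 (adjusted p = 0.00344) and that of Adcy6 by 0.41 (adjusted p = 0.00261). Adcy9 fell by 0.47 on the log2 scale (adjusted p = 0.00305 from limma), Adcy1 by 0.37 (adjusted p = 0.0190) and Adcy2 by 0.34 (adjusted p = 0.00808). Adcy5 and Adcy6 passed the methods' t-test after adjustment, while Adcy3, Adcy9, Adcy2 and Adcy1 did not (adjusted p = 0.0689, 0.0615, 0.0720 and 0.145). Adcy1 was lost in limma without control 2 or any of the mutants (adjusted p = 0.0635 to 0.0773). Phospholipase C beta enzymes, which follow Gq, had 0 of 4 genes called in limma, and 0 of the 4 at an unadjusted p under 0.05. Plcb1 had a log2 difference of 0.038.

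Receptors that couple to Gi/o or Gq were called higher for 3 of 23 genes and lower for 6. The serotonin receptor Htr1a rose from 7.95, 7.87 and 8.19 in controls to 9.48, 9.33 and 9.27 in mutants, a log2 difference of 1.36 (adjusted p = 3.57e-05 from limma, standard error 0.090). The adrenergic receptor Adra2c was at 8.54, 8.75 and 8.98 in controls and at 7.54, 7.38 and 7.13 in mutants, a log2 difference of -1.41 (standard error 0.13, adjusted p = 1.59e-04 from limma). Neither pair of groups overlapped. Grm2, a presynaptic glutamate receptor of mossy fibers, had a log2 difference of -0.53 (adjusted p = 0.00211 from limma), the opioid receptor Oprd1 of -0.66 (adjusted p = 0.00966), Grm5 of -0.23 (adjusted p = 0.0167) and the dopamine receptor Drd4 of -0.26 (adjusted p = 0.0365). Grm2, Oprd1 and Drd4 did not pass the methods' t-test after adjustment (adjusted p = 0.0588, 0.138 and 0.145). Grm5 was lost in limma without control 2, mutant 1 or mutant 2 (adjusted p = 0.0645 to 0.0739), and Drd4 without control 2, control 3, mutant 1 or mutant 3 (0.0524 to 0.127).

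Of 14 other regulators of receptors and G proteins 1 was higher and 2 were lower. Arrb1, a beta-arrestin that uncouples active receptors from G proteins, was at 10.87, 10.68 and 10.72 in controls and at 11.76, 11.86 and 11.73 in mutants. Its log2 difference was 1.03 (standard error 0.067, adjusted p = 3.08e-05 from limma), whereas that of Arrb2 was -0.12. Gpsm1 and Gpsm2, which bind inactive Gi alpha subunits, had log2 differences of -0.50 and -0.57 (adjusted p = 0.00240 and 0.00682 from limma). In the methods' t-test their adjusted p was 0.0593 and 0.113. Of the genes named from the lists, Rgs13, Gnai2, Gng3, Adcy5, Adcy6, Htr1a, Adra2c and Arrb1 kept their call in each of 14 alternatives.

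**Figure D4:**
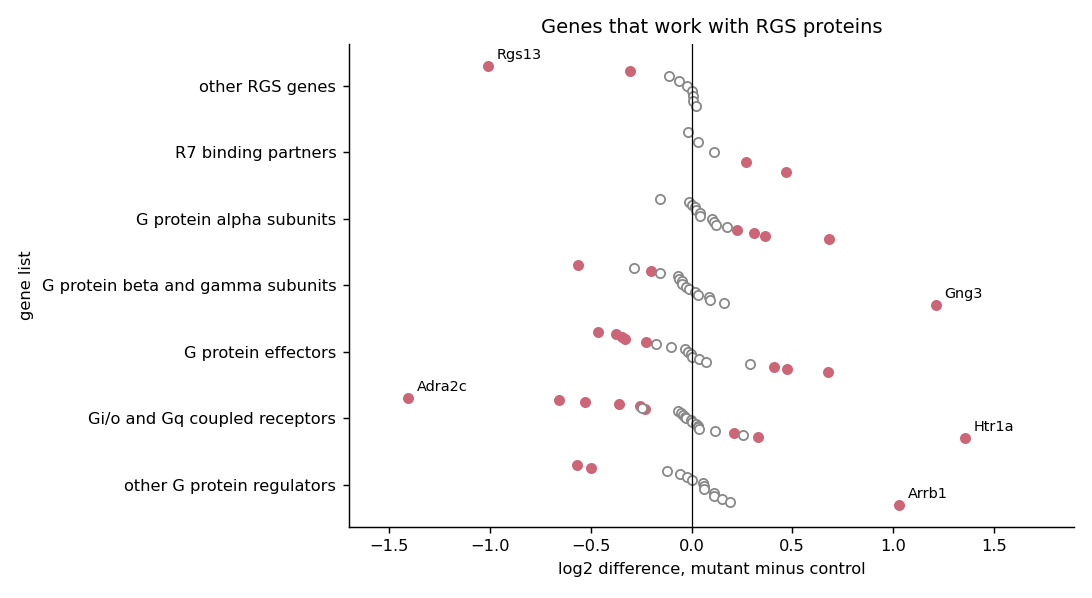
Log2 difference between mutant and control arrays (horizontal axis, n = 3 per group) of 99 genes that work with RGS proteins, by list on the vertical axis and sorted within a list. Filled points passed the test at an adjusted p under 0.05 and open points did not. The called genes with the largest differences are named, and the 4 filled alpha subunits lie to the right of 0.

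Genes whose profile was most like that of Rgs4 were found by the root mean square distance over the 6 arrays, after the mean of the controls was subtracted. The nearest of all genes tested was the sialyltransferase St3gal1 with a distance of 0.11 log2 units, followed by the dopamine receptor Drd1 with 0.16, the calcium-binding protein Cabp7 with 0.19 and the activin receptor Acvr1c with 0.21. All 4 were lower in mutants, with log2 differences of -1.90, -2.10, -1.86 and -2.04. These genes were chosen for this likeness, which gets no test.

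Some markers of granule cells and of the cells next to them were called as well, where 9.23% of all genes were called higher and 5.93% lower. The part of these markers in the values above was not tested. Of 14 granule cell markers 3 were higher and 7 lower, with a summed linear level of 39173 to 40053 in controls and 29791 to 30202 in mutants. That list holds Bcl11b itself as well as C1ql2 and Dsp, which the study names as targets or candidate targets of Bcl11b/Ctip2. Their log2 differences here were -1.58, -3.29 and -0.81. Without these 3 genes, left out after their values were seen, 3 of 11 markers were higher and 4 lower, and the summed level was 33112 to 33567 in controls and 28094 to 28426 in mutants. Of 14 markers of pyramidal and mossy cells 6 were higher and 4 lower (4906 to 5079 in controls and 6115 to 6398 in mutants). That list also holds Rgs14. Of 12 interneuron markers 1 was higher and 2 lower (6583 to 8292 and 9051 to 10160). The higher one was the neuropeptide Cck, with a log2 difference of 1.56, and without it (also left out after its value was seen) the summed level of the other 11 was 4710 to 5685 in controls and 4461 to 4690 in mutants. Microglia markers were lower for 1 of 13, with 13 of 13 differences negative (1636 to 2325 and 1594 to 1797), and oligodendrocyte markers for 2 of 11 (3144 to 3303 and 2583 to 2954). Among the oligodendrocyte markers Ermn fell most, by a log2 difference of -1.71 against a median of -0.18. Of 12 astrocyte markers 2 were higher (9438 to 11463 and 11655 to 13129), and of 11 endothelial markers 1 was higher and 1 lower (1241 to 1351 and 1241 to 1451). For microglia and endothelial markers the summed levels of the groups overlapped.

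**Figure D5:**
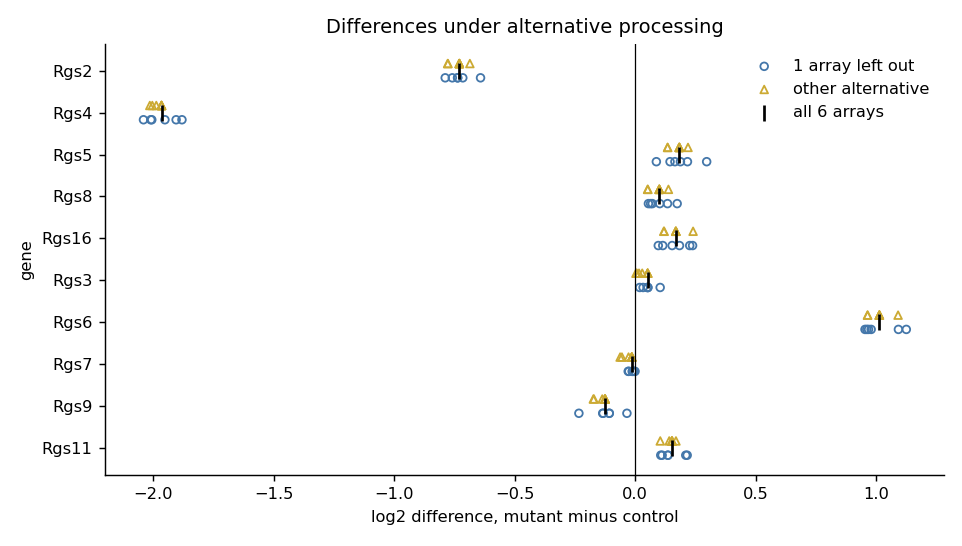
Log2 difference between mutant and control arrays (horizontal axis) of each R4 and R7 gene with all 6 arrays (black bars), with 1 array left out (circles) and under the other alternatives (triangles). Rgs4 stays between -2.04 and -1.88, Rgs2 between -0.79 and -0.64 and Rgs6 between 0.95 and 1.12, apart from the other 7 genes, which lie between -0.23 and 0.30.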

How the data were processed

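RNA of 3 control and 3 mutant samples was measured on 1-colour Affymetrix whole-transcript arrays. The authors deposited log2 expression values made with RMA in Affymetrix Expression Console, per the submitters' processing notes. RMA corrects background and equalizes the distributions of the arrays, which takes out any shift shared by all genes. The sources used here give no version, and no build for the probes. Of 35556 probe sets, 21789 were paired with 1 gene, and the one of highest mean was kept for each of 19938 genes, without a filter on level. The comparison of groups used limma 3.58.1 (R 4.3.3, no covariates, Benjamini-Hochberg adjustment over all genes, threshold 0.05). The test was checked on simulated data. The 10 genes, the lists and the rule for named genes were chosen with earlier results of these data known. Named were all R4 and R7 genes, all other RGS genes and R7 partners, Bcl11b, up to 6 called genes of smallest p per further list, the 4 genes nearest to Rgs4, and markers. Prox1, Plcb1, Arrb2, Adcy8 and Kcnj3 were added after their values were seen. Genes of the lists without a probe set of their own, 8 of 107, were not analysed here. With 3 arrays a group, permuting the labels exactly could not give a p under 0.1, and this number limits precision. Deviations of arrays of the same number correlated at 0.16, -0.033 and 0.12, and those of different numbers at -0.17 to 0.064. With 3 arrays a group this cannot decide whether they are pairs. No pairing is stated, so the numbers were not taken as pairs. Alternatives were the methods' t-test, other variance priors, array weights, a filter on dim genes, other uses of probe sets, renewed normalization, the replicate block and leaving out each array.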

Additional observations from a re-analysis of the deposited data

How the results depend on the processing

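The counts of 1 higher and 2 lower R4 and R7 genes did not move under any alternative except array weights, which gave 2 higher and 2 lower. Since this contrast chose the set and every alternative reuses its arrays, these stable counts are a description and no test of the set. The replicate block gave 3 called R4 and R7 genes, 28 of the 99 other genes of the pathway where limma without it gave 31, and 3176 genes in all. The 31 calls fell to 10 with the methods' t-test after adjustment and were 18 to 30 when 1 array was left out. Over all genes, 3023 were called, 1141 with the methods' t-test, 5527 with array weights and 1886 to 4487 with 1 array left out. The split of 1840 higher and 1183 lower genes became 1628 and 1545 after renewed quantile normalization and 1423 and 1800 after median centring, so it depends on the scaling. A filter on dim genes kept 7 of the 10 R4 and R7 genes, without Rgs3, Rgs11 and Rgs16. Those 2 scalings moved Rgs7 to -0.055 and -0.063. Over all genes of the pathway named by the rule and all alternatives, a call was lost 53 times and gained 1 time, and 442 comparisons kept their side of the threshold. The causes were not tested.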
